A study of Mus musculus with 23 samples.

Results

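The LAR-type receptor phosphatases Ptprd, Ptprf and Ptprs and 6 of their postsynaptic partners, Slitrk1 to Slitrk5 and Il1rapl1, were followed as 9 named genes among the 45706 genes counted. The genes were chosen by name, with earlier results of these data known, and all 9 passed the filter on low counts. The libraries were 23 samples of polyA RNA from mouse hippocampus, in which neurons named by the labels as CamK, Grik or SST were compared between wild type (WT) and a conditional knockout (cKO) of Slm2, a neuronal RNA-binding splicing regulator whose gene is Khdrbs3. CamK and Grik libraries carry the cell type label of excitatory pyramidal cells, and SST libraries that of somatostatin-positive interneurons; the stated design speaks of CA1, CA3 and SST+ populations. There were 4 CamK WT, 3 CamK cKO, 4 Grik WT, 4 Grik cKO, 4 SST WT and 4 SST cKO libraries. Whether WT animals carried the same Cre driver, how the cells or their RNA were isolated, which exons were deleted, and the age of the mice are not given in the sources used here. Nothing in the labels says that libraries of a group came from separate animals, so p-values measure the spread between libraries, which may be in part technical.

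LAR-type phosphatases are transmembrane proteins of the axon terminal, with immunoglobulin and fibronectin repeats outside the cell and phosphatase domains inside. Their outer part binds, across the synaptic cleft, leucine-rich repeat proteins of the Slitrk family and the interleukin-1 receptor relatives Il1rapl1 and Il1rap, and such contacts can organise both sides of a synapse. Slitrk3 is known for inhibitory synapses, whereas other Slitrk proteins are studied mainly at excitatory ones, and short alternatively spliced inserts in the phosphatases set which partner binds. The values here are reads per gene and hold no information on those inserts. Each Slitrk gene has 1 coding exon in the GENCODE annotation (GRCm38), against 31 to 35 coding exons in the phosphatases and 10 in Il1rapl1.

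In the main fit, Ptprs, Ptprf, Slitrk1 and Slitrk5 passed the test between the interneurons and both excitatory populations, in WT and in libraries labelled cKO. Their promoter windows are shown for that reason, although Ptprf lost its call for Grik against SST in WT in 5 of 18 alternative settings. RefSeq (GRCm38.p6) windows of 300 bases, from 250 bases before to 50 after the start of transcription, were matched by symbol for 7 of the 9 genes, and are written 5′ to 3′ in the direction of the gene. Capitals mark the E-box letters CANNTG, the class of site read by basic helix-loop-helix factors; these letters read alike on both strands and are found in 72.3% of all 32851 windows. The Ptprs window shown, the first of 2 for that gene, lies at chr17:56476431-56476730 (minus strand), the Ptprf window at chr4:118291348-118291647 (minus strand), the Slitrk1 window at chr14:108914190-108914489 (minus strand) and the Slitrk5 window at chr14:111675777-111676076 (plus strand).
Ptprs: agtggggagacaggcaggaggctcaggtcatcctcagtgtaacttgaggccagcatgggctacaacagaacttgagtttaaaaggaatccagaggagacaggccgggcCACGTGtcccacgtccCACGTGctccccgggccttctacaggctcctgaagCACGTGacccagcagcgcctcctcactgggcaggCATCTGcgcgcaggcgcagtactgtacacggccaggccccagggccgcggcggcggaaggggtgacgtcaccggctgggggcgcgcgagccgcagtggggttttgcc
Ptprf: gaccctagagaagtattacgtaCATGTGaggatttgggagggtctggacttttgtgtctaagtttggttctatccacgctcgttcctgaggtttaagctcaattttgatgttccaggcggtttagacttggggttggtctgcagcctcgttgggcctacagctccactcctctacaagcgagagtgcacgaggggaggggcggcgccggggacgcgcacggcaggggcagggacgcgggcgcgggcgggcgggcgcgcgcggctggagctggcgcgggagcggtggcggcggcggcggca
Slitrk1: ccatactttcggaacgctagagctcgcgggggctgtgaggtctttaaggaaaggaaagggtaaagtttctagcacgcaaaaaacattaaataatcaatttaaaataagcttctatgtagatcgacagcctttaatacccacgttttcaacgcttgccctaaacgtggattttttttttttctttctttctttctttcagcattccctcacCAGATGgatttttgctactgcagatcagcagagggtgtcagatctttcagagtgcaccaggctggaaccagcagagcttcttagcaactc
Slitrk5: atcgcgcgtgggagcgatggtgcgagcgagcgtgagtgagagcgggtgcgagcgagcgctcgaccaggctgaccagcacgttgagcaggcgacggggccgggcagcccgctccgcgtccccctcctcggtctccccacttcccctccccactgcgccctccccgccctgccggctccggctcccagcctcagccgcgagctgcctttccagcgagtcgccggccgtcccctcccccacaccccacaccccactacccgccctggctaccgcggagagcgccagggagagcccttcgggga
The Ptprs window shown holds 4 E-boxes, the Ptprf and Slitrk1 windows 1 each, and the Slitrk5 window none of these letters. The other Ptprs window, at chr17:56462172-56462471 (minus strand), holds 0 E-boxes. The windows differ in base composition: G and C make up 74.3% of the Slitrk5 window and 42.3% of the Slitrk1 window, with 65.7% for the Ptprs window shown, 64.3% for its other window and 64% for Ptprf. Of all windows, 95.6% hold less G and C than that of Slitrk5 and 14.9% less than that of Slitrk1. The GC box letters GGGCGG, searched on both strands, were matched 3 times in the Ptprf window, 2 times in that of Slitrk5 and, for Ptprs, 0 times in the window shown and 3 times in the other, and are in 35.7% of all windows.

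Reads assigned to genes ranged from 87612006 to 112993538 per library. The lowest count of any of the 9 genes in any library was 282 reads (Il1rapl1) and the highest 37909 (Ptprs), so counting error was small beside the spread between libraries. Levels are given as counts per 1000000 reads (CPM) after scaling by the trimmed mean of M-values. Several markers followed the labels. Sst was 159 to 1720 CPM in SST WT (mean 998) against means of 5.59 in CamK WT and 8.13 in Grik WT. Wfs1, a CA1 marker, was 356 CPM in CamK WT against 24.7 in Grik WT. Bok, a CA3 marker, was 220 CPM in Grik WT against 46.5 in CamK WT. The excitatory markers Camk2a, Slc17a7 and Neurod6 were 4080, 955 and 490 CPM in CamK WT, below 4610, 1560 and 761 in Grik WT. Markers of other cells were present too. The dentate granule cell marker Prox1 was 92.4 CPM in CamK WT (49.2 to 139), 82.4 in Grik WT and 18.6 in SST WT. Dsp, of the same cells, was 40.8, 33.5 and 8.99 CPM in that order. In SST WT the excitatory markers Camk2a, Slc17a7 and Neurod6 were at 731, 83.3 and 23.6 CPM. Vip and Pvalb are used as markers of other interneuron classes. Vip was 10.5 CPM in Grik WT against 0.348 in CamK WT and 0.610 in SST WT. Pvalb was 140 CPM in SST WT (114 to 172) against 1.05 in both CamK WT and Grik WT. Whether its reads in SST WT came from other cells or from those that express Sst cannot be told from these counts. The part of any such other cells in the population values was not tested. Khdrbs3 itself went against its label in Grik, where all 4 cKO libraries (396 to 439 CPM) were above all 4 WT libraries (327 to 347 CPM); its log2 difference was 0.30 there (edgeR adjusted p = 0.499), -0.42 in CamK (adjusted p = 0.114) and -0.47 in SST (adjusted p = 0.0309). A total count says nothing about a deletion of single exons, and the groups are therefore called libraries labelled cKO.

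Among the phosphatases, Ptprs and Ptprf ran in opposite directions between interneurons and excitatory neurons, while Ptprd did not pass the test in any of the 3 comparisons of WT populations. Ptprs, also called PTP sigma, which binds proteoglycans as well as Slitrk proteins, was 130, 148, 152 and 174 CPM in SST WT, 251, 268, 271 and 280 in CamK WT and 297, 314, 366 and 434 in Grik WT. The WT groups did not overlap in any pair. Ptprs was thus higher in CamK than in SST by 0.82 ± 0.11 on the log2 scale (SE; edgeR adjusted p = 3.26e-07) and higher in Grik than in SST by 1.23 ± 0.11 (adjusted p = 4.08e-10), the latter a 2.34-fold difference. Ptprf, the gene named LAR, was 46.5, 46.7, 51.7 and 53.7 CPM in SST WT, 26.2, 26.3, 26.6 and 36.5 in CamK WT and 33.3, 33.8, 42.6 and 50.4 in Grik WT. Its CamK libraries were all below its SST libraries, whereas Grik overlapped both. The log2 difference of Ptprf was -0.78 ± 0.11 for CamK minus SST (adjusted p = 2.17e-06) and -0.31 ± 0.11 for Grik minus SST (adjusted p = 0.022). Over 18 alternative settings the adjusted p of the Grik difference ran from 0.00144 to 0.144. It no longer passed in 5 of them, among them leaving out Grik WT replicate 3 or 6 (-0.22 each) or SST WT replicate 2 (-0.27) or 3 (-0.29). Ptprd, the phosphatase bound by Slitrk3 and Il1rapl1, was 42.6 to 67.0 CPM in SST WT, 49.0 to 69.2 in CamK WT and 41.8 to 49.4 in Grik WT, with overlap in each pair. The Ptprd difference for CamK minus Grik, 0.33, passed in 5 of 17 alternative settings (adjusted p from 0.000404 to 0.204), among them leaving out CamK WT replicate 4 (0.40, adjusted p = 0.0298). For CamK minus SST, Ptprd passed in 1 of 18, with a score of non-neuronal (glial and vascular) markers as a covariate. There 0.07 became 0.76 (edgeR adjusted p = 0.00286), but CamK WT and SST WT did not overlap in that score. For Grik minus SST, Ptprd passed in 1 of 18, without SST WT replicate 1 (-0.36, adjusted p = 0.0276).

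Among the postsynaptic partners, Slitrk5 had the widest contrast of the 9 genes between CamK and SST. Its WT libraries stood at 30.4, 35.0, 37.1 and 40.8 CPM in SST, 81.0, 84.8, 86.4 and 92.7 in CamK and 77.4, 79.8, 80.6 and 88.1 in Grik. The 8 excitatory libraries were all above the SST libraries, and CamK and Grik overlapped. Slitrk5 was 2.41-fold higher in CamK than in SST (log2 1.27 ± 0.08, edgeR adjusted p = 1.45e-12) and 2.27-fold higher in Grik than in SST (log2 1.19 ± 0.08, adjusted p = 4.5e-12). Slitrk1, a regulator of neurite and synapse formation, formed 3 steps, with 41.7, 45.0, 49.4 and 53.5 CPM in SST WT, 74.0, 81.0, 86.8 and 94.0 in CamK WT and 61.6, 61.7, 63.1 and 74.1 in Grik WT. Only the CamK and Grik ranges overlapped, with 74.0 CPM in the lowest CamK and 74.1 in the highest Grik library. Slitrk1 was higher in CamK than in SST by 0.83 ± 0.09 (log2, adjusted p = 1.03e-08), in Grik than in SST by 0.46 ± 0.09 (adjusted p = 6.61e-05) and in CamK than in Grik by 0.37 ± 0.09 (adjusted p = 0.00129).

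Slitrk3, the member of the family tied to inhibitory synapses, differed less: 55.8, 62.6, 64.6 and 69.7 CPM in SST WT, 61.8, 64.7, 66.3 and 66.8 in CamK WT and 73.0, 74.8, 76.5 and 79.4 in Grik WT. All Grik libraries were above those of the other populations, with a log2 difference of -0.23 ± 0.08 for CamK minus Grik (edgeR adjusted p = 0.0176) and 0.27 ± 0.08 for Grik minus SST (adjusted p = 0.00406). The former was -0.20 and no longer passed without CamK WT replicate 5 (adjusted p = 0.0543) or Grik WT replicate 3 (adjusted p = 0.0592). Slitrk2, an X-linked member, was at 8.93 to 13.2 CPM in SST WT, 10.8 to 12.9 in CamK WT and 12 to 17.3 in Grik WT, and the ranges overlapped. Its fit for Grik minus SST was 0.40 ± 0.12 (adjusted p = 0.00545) and for CamK minus Grik -0.31 ± 0.12 (adjusted p = 0.0376); over 17 alternative settings the latter ran from -0.40 to -0.19 (adjusted p from 0.00891 to 0.55). It did not pass in 9 of them, 6 of which left out 1 library (CamK WT replicate 3, 4 or 5, or Grik WT replicate 3, 4 or 5, at -0.33 to -0.22). Slitrk4 was 22.2 to 37.0 CPM in SST WT, 22.6 to 27.0 in CamK WT and 28.5 to 34.3 in Grik WT, and passed in no comparison; without SST WT replicate 1 its difference for CamK minus SST was -0.39 (edgeR adjusted p = 0.00724). Il1rapl1, an X-linked gene whose loss is known in intellectual disability, was at 4.04 to 7.21 CPM in SST WT, 5.44 to 9.44 in CamK WT and 3.88 to 7.59 in Grik WT. It passed in none of the 3 WT comparisons. For CamK minus Grik, at 0.51, it passed in 4 of 17 alternative settings: without CamK WT replicate 5 (0.64, edgeR adjusted p = 0.0372) or Grik WT replicate 3 (0.76, adjusted p = 0.011), by limma-voom (0.68, adjusted p = 0.0121) and with the sex genes scored as a covariate (0.61, adjusted p = 0.0398). For CamK minus SST, at 0.39, it passed in 1 of 18, by limma-voom (0.50, adjusted p = 0.0482).

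**Figure D1:**
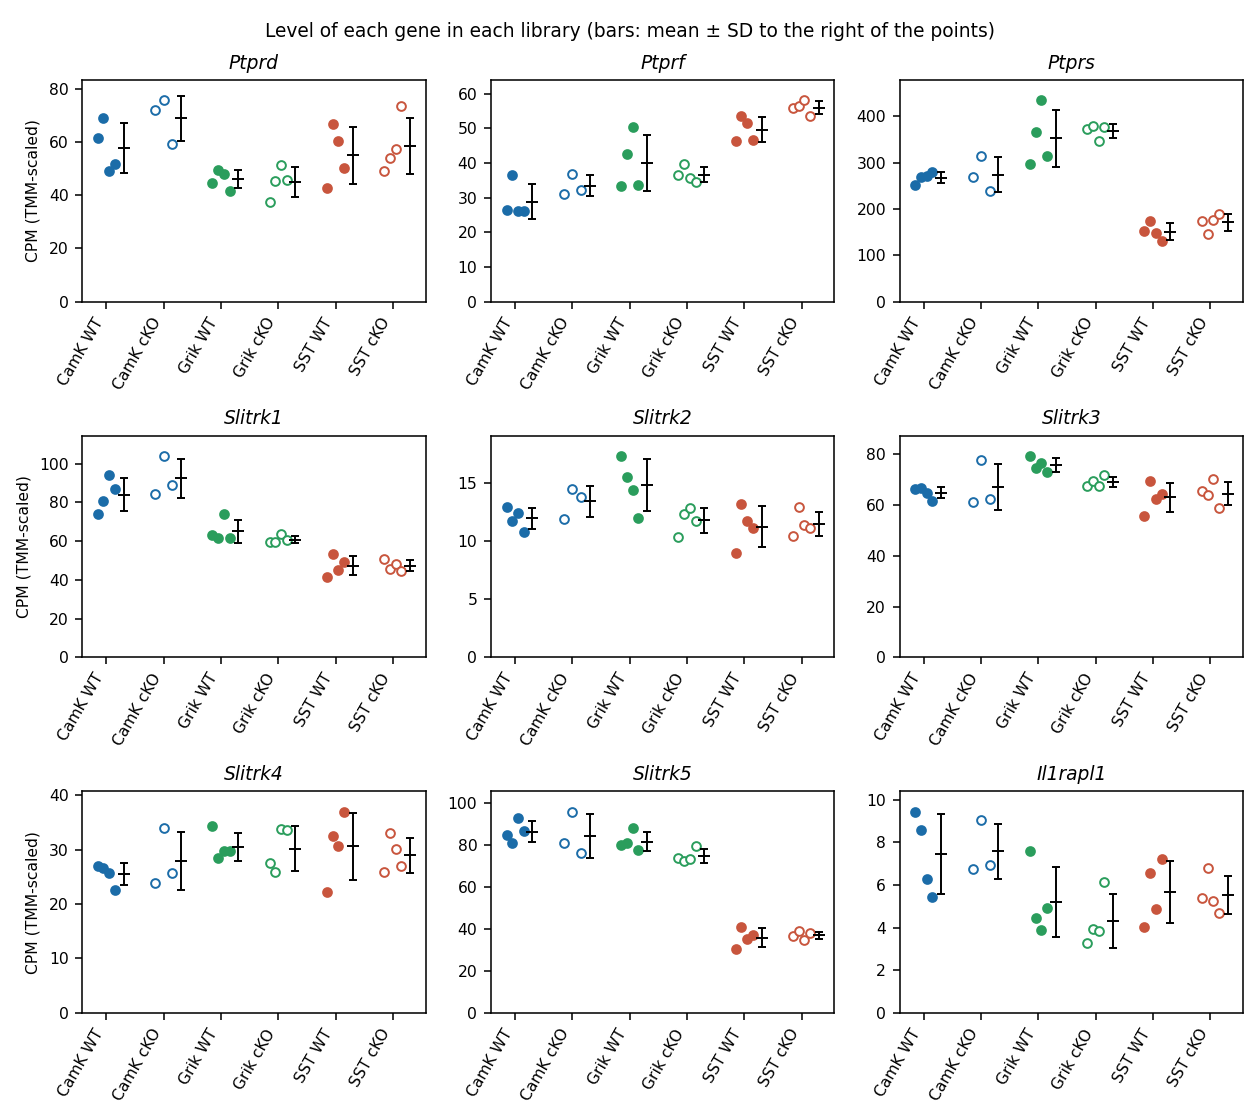
CPM of each gene (vertical axes, from 0, each panel with its own scale) in the 23 libraries by group; filled points are WT, open points are labelled cKO, and the bar beside each group is the mean ± SD. Slitrk5 in SST WT lies between 30.4 and 40.8 CPM, under all CamK and Grik libraries, while Ptprf is highest in the SST groups.

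As counts over WT libraries, 5 of the 9 genes passed the test between CamK and Grik (1 higher, 4 lower in CamK), where 42.0% of all 18823 genes tested did. Between CamK and SST 4 of 9 passed (3 higher, 1 lower), with 60.1% of all genes, and between Grik and SST 6 of 9 (5 higher, 1 lower), with 57.3%. With 9 genes, these counts lie on either side of the background shares. The median absolute log2 difference of the 9 genes was 0.33, 0.39 and 0.31 in these comparisons, beside 0.34, 0.54 and 0.51 over all genes tested. In libraries such as these, fewer cells of a type, RNA from other cells and less RNA of a gene per cell cannot be told apart. Markers of glia and vessels differed between the populations too. The 17 non-neuronal marker genes summed to 298 to 664 CPM in SST WT, 155 to 236 in CamK WT and 684 to 883 in Grik WT. Of the 17, 13 were lower and 0 higher in CamK than in Grik, and 14 lower and 0 higher in CamK than in SST. Between Grik and SST, 4 were higher and 3 lower in Grik. As a score, the mean log2 CPM of these markers was -0.04 to 1.03 in CamK WT, 2.15 to 2.73 in Grik WT and 2.15 to 3 in SST WT. CamK did not overlap the other populations in it, nor did it in the libraries labelled cKO. Score and population can therefore hardly be told apart in fits that compare CamK, and values from them are not adjusted population differences. With the score as a covariate, 1 of 9 genes passed between CamK and Grik in WT: Ptprd, at 0.94 (edgeR adjusted p = 0.000404), while 5 genes no longer did. Ptprf went from -0.47 (adjusted p = 0.00176) to -0.32, Ptprs from -0.40 (adjusted p = 0.0036) to -0.17, Slitrk1 from 0.37 to 0.40 (adjusted p = 0.0605), Slitrk2 from -0.31 to -0.19 and Slitrk3 from -0.23 to -0.07. In that fit 4053 of all genes passed, against 7912 without the covariate. Against SST, the 4 calls from CamK and the 6 from Grik were kept under that covariate, and Ptprd passed from CamK at 0.76. Of all genes, 7388 passed for CamK against SST with the covariate, and 11305 without it.

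The libraries labelled cKO are other samples of the same populations. They gave the calls against SST again for Ptprf, Ptprs, Slitrk1 and Slitrk5, but not every other WT call. Slitrk5 was 34.7, 36.4, 37.9 and 38.7 CPM in SST cKO, 75.8, 80.7 and 95.7 in CamK cKO and 72.1, 73.3, 73.5 and 79.4 in Grik cKO. Again no SST library reached the excitatory ones, and the log2 differences were 1.19 ± 0.09 (CamK minus SST, edgeR adjusted p = 1.93e-11) and 1.01 ± 0.08 (Grik minus SST, adjusted p = 8.13e-11). Ptprs was 145, 173, 176 and 190 CPM in SST cKO, 239, 268 and 315 in CamK cKO and 346, 373, 377 and 379 in Grik cKO, with no overlap between any pair. Ptprf was 53.6, 55.8, 56.4 and 58.1 CPM in SST cKO, 31.1, 32.3 and 36.9 in CamK cKO and 34.5, 35.8, 36.7 and 39.6 in Grik cKO. All SST libraries stood above the others for Ptprf, at -0.74 ± 0.13 for CamK minus SST (adjusted p = 1.75e-05) and -0.61 ± 0.11 for Grik minus SST (adjusted p = 6.03e-05).

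Of the 9 genes, 4 passed between CamK and Grik in the libraries labelled cKO (35.7% of all genes did), 4 between CamK and SST (56.4%) and 5 between Grik and SST (57.9%). Both genotypes gave the call in the same direction for 2, 4 and 4 of the 9 genes, beside 29.1%, 48.9% and 50.6% of all genes. The 2 shared between CamK and Grik were Ptprs and Slitrk1, although with the non-neuronal covariate Ptprs was -0.26 in the libraries labelled cKO (adjusted p = 0.243, against -0.43 and adjusted p = 0.00493 without it). The genes shared against SST were Ptprf, Ptprs, Slitrk1 and Slitrk5 in each case. Other WT calls did not pass again in the libraries labelled cKO. For CamK minus Grik, Ptprf was -0.13 (edgeR adjusted p = 0.443) and Slitrk3 -0.04 (adjusted p = 0.76). Slitrk2 turned in sign there, from -0.31 in WT to 0.19 (edgeR adjusted p = 0.273). For Grik minus SST, Slitrk2 was 0.04 (edgeR adjusted p = 0.801) and Slitrk3 0.10 (adjusted p = 0.284). Ptprd was higher in CamK than in Grik in the libraries labelled cKO, at 59.4, 71.9 and 75.7 against 37.6, 45.5, 45.6 and 51.4 CPM, a log2 difference of 0.61 ± 0.15 (adjusted p = 0.00212) beside 0.33 ± 0.14 in WT (adjusted p = 0.0601). With the non-neuronal covariate it was 1.09 in the libraries labelled cKO (adjusted p = 1.31e-05). Il1rapl1 was likewise higher in CamK there, at 6.74, 6.94 and 9.06 against 3.29, 3.82, 3.94 and 6.15 CPM. Its log2 difference of 0.82 ± 0.24 (adjusted p = 0.011) was 0.67 (adjusted p = 0.0657) without CamK cKO replicate 5, and in WT it was 0.51 ± 0.23 (adjusted p = 0.0754). Ptprd was also lower in Grik than in SST in the libraries labelled cKO (-0.38 ± 0.14, adjusted p = 0.0229), a call lost in 3 of 18 alternative settings, with -0.29 without Grik cKO replicate 1 and -0.25 without SST cKO replicate 7. For CamK minus SST Ptprd was 0.24 (adjusted p = 0.185) and passed in 3 of 17 alternative settings, among them without SST cKO replicate 7 (0.36, adjusted p = 0.039) and with the non-neuronal covariate (0.81, adjusted p = 0.000623). Without Grik cKO replicate 4, Il1rapl1 passed for Grik minus SST (-0.57, adjusted p = 0.0419).

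**Figure D2:**
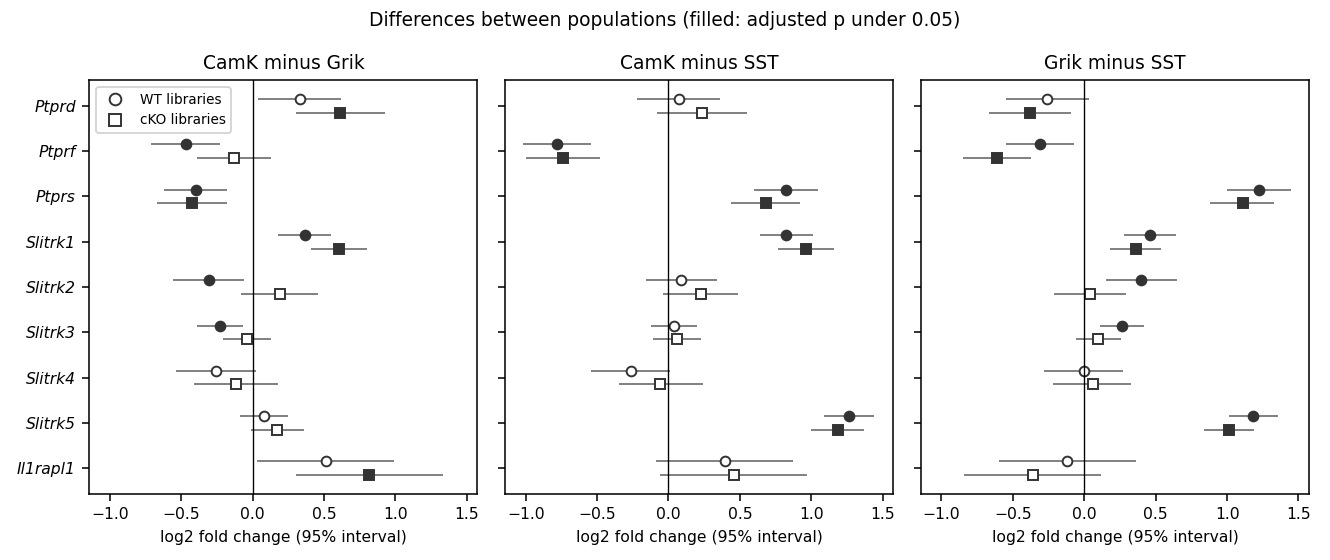
Log2 fold changes between populations (horizontal axis) with 95% intervals for each gene, from WT libraries (circles) and from libraries labelled cKO (squares); filled symbols have an edgeR adjusted p under 0.05. Slitrk5 stands 1.01 to 1.27 above SST in both excitatory populations and both genotypes, and Ptprf on the negative side.

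Levels can be compared between genes only per length, here as CPM per kilobase of merged exon. In CamK WT the order was Ptprs (17.8 ± 0.793, SD, n = 4), Slitrk5 (16.4 ± 0.929), Slitrk1 (15.7 ± 1.58), Slitrk3 (13.4 ± 0.464), Ptprf (3.16 ± 0.556), Slitrk4 (2.92 ± 0.232), Ptprd (2.53 ± 0.405), Slitrk2 (1.48 ± 0.115) and Il1rapl1 (0.796 ± 0.201). Neighbours in that order were closer than the larger of their SDs for Slitrk5 and Slitrk1, Ptprf and Slitrk4, and Slitrk4 and Ptprd. In Grik WT Ptprs led at 23.5 ± 4.1, followed by Slitrk3 (15.7 ± 0.56) and Slitrk5 (15.5 ± 0.88), which did not differ beyond their spread, and Slitrk1 (12.2 ± 1.12). In SST WT Slitrk3 led at 13 ± 1.19, above Ptprs (10.1 ± 1.21), Slitrk1 (8.84 ± 0.96), Slitrk5 (6.81 ± 0.827) and Ptprf (5.43 ± 0.393). Slitrk2 and Il1rapl1 were at ranks 8 and 9 in all 6 groups. The order, between families and within the phosphatases, depends on the length used. The longest transcript is 6.86 kb for Ptprs in place of 14.99 kb of merged exon, and 9.90 in place of 22.82 kb for Ptprd. With it, Ptprs led in SST WT as well, at 22 ± 2.66 against 13.8 ± 1.26 for Slitrk3. In CamK WT Ptprd then stood above Ptprf, at 5.84 ± 0.934 against 3.78 ± 0.664.

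Within the phosphatase family, Ptprs made up 56.2% ± 2.39 of the summed CPM per kilobase in SST WT (SD, n = 4), but 75.9% ± 3.17 in CamK WT and 78.6% ± 0.642 in Grik WT. The highest SST library, at 59.3%, was below the lowest CamK library, at 71.8%. Ptprf took the opposite course, with 30.4% ± 1.42 in SST WT, 13.4% ± 1.83 in CamK WT and 14.6% ± 0.518 in Grik WT. The share of Ptprd was 13.4% ± 1.69, 10.8% ± 1.56 and 6.83% ± 0.81 in the same order. With the longest transcript as the length, the Ptprs shares were 64.6%, 80.2% and 83.8%, again for SST, CamK and Grik. The Ptprf shares were then 19.1%, 7.75% and 8.48% and the Ptprd shares 16.3%, 12% and 7.67%. In CamK WT the order of Ptprf and Ptprd was thus turned by the choice of length. Within Slitrk1 to Slitrk5, the share of Slitrk5 was 20.3% ± 0.3 in SST WT, 32.9% ± 0.873 in CamK WT and 31.8% ± 0.799 in Grik WT, and that of Slitrk3 was 38.9% ± 0.968, 26.9% ± 1.62 and 32.2% ± 1.11. The Slitrk3 share did not follow its level, which was 63.2 CPM in SST WT, 64.9 in CamK WT and 75.9 in Grik WT, since Slitrk1 and Slitrk5 in the same sum were lower in SST. Slitrk1 made up 26.3% ± 0.681, 31.4% ± 2.09 and 25% ± 1.31. These shares are a second reading of the levels above, and no separate test was made of them. The libraries labelled cKO lay close by: the mean share of Ptprs was 56.7%, 73.2% and 80.4% in SST, CamK and Grik, and that of Slitrk3 39.3%, 26.7% and 31.9%.

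**Figure D3:**
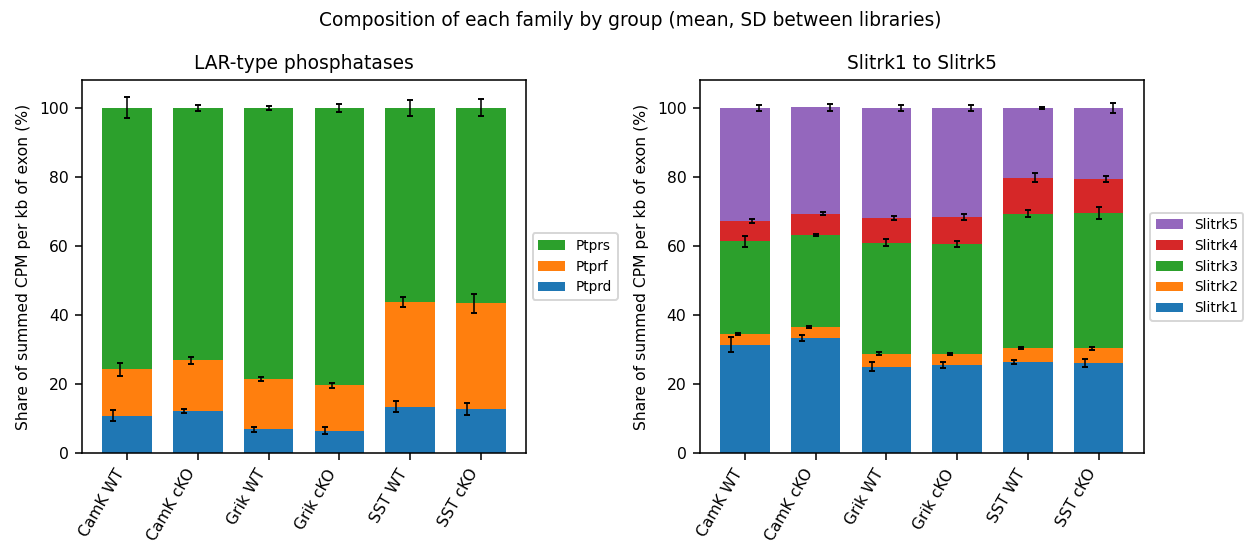
Share of each gene in the summed CPM per kilobase of exon of its family (vertical axis, percent) by group; segments are group means stacked to 100% and the error bars at segment tops are the SD between libraries (3 or 4). The Ptprf segment is 30.4% in SST WT against 13.4% in CamK WT, and the Slitrk5 segment 20.3% against 32.9%.

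Between libraries labelled cKO and WT, none of the 9 genes passed the test in CamK, in Grik or in SST, and 0.0106% of all 18823 genes did in each of the 3 comparisons. Past the threshold were, in CamK and likewise in Grik, the Slm2 paralogs Khdrbs1 (log2 0.59 and 0.56) and Khdrbs2 (1.52 and 2.17), each higher in libraries labelled cKO. By edgeR's unadjusted p under 0.05, 1 of 9 did so in Grik and 0 in CamK or SST, and DESeq2 and limma-voom also called 0 of 9 in each. Of all genes, 7.05%, 4.88% and 5.85% had an unadjusted p under 0.05. The fitted differences of the phosphatases ran from 0.09 (Ptprd) to 0.18 (Ptprs) in SST, from 0.04 (Ptprs) to 0.26 (Ptprd) in CamK and from -0.13 (Ptprf) to 0.06 (Ptprs) in Grik. Their 95% intervals limit what could have been missed: for Ptprs the interval was -0.04 to 0.40 on the log2 scale in SST, -0.21 to 0.28 in CamK and -0.16 to 0.29 in Grik. For Slitrk5 it was -0.13 to 0.22, -0.22 to 0.15 and -0.30 to 0.04 in that order. For Il1rapl1, the gene with fewest reads, it was widest, at -0.52 to 0.44, -0.49 to 0.54 and -0.76 to 0.21. Non-neuronal markers lay higher beside these values without passing the test: a positive cKO minus WT difference was seen for 13 of 17 in SST, 16 in CamK and 16 in Grik, with sums of 260 to 997, 235 to 293 and 729 to 1030 CPM in the libraries labelled cKO. Ptprd was the gene whose deviation from its group means went most with that score, with r = 0.69 over 23 libraries, which share scaling and depth; its part in the Ptprd values was not tested beyond the covariate fit.

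The lowest p of the genotype comparisons belonged to Slitrk2 in Grik. Its libraries were 12, 14.4, 15.5 and 17.3 CPM in WT and 10.3, 11.7, 12.3 and 12.8 in those labelled cKO. The ranges overlapped by 2 libraries on the cKO side, and the log2 difference was -0.33 ± 0.12 (edgeR adjusted p = 0.89). Over 17 alternative settings it ran from -0.43 to -0.25, with adjusted p from 0.138 to 1. Slitrk3 in Grik was 73.0, 74.8, 76.5 and 79.4 CPM in WT and 67.4, 67.7, 69.4 and 71.8 in libraries labelled cKO, so that the groups did not overlap; its difference was -0.14 ± 0.08 (adjusted p = 0.992). In CamK 8 of 9 genes had a positive difference, in Grik 1 and in SST 6, with medians of 0.13, -0.13 and 0.03 beside medians of 0.00, 0.00 and 0.02 over all genes. Leaving out CamK cKO replicate 5, the highest CamK library labelled cKO for all 9 genes, turned the CamK differences of Ptprs (-0.08), Slitrk3 (-0.06), Slitrk4 (-0.04) and Il1rapl1 (-0.12) negative.

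**Figure D4:**
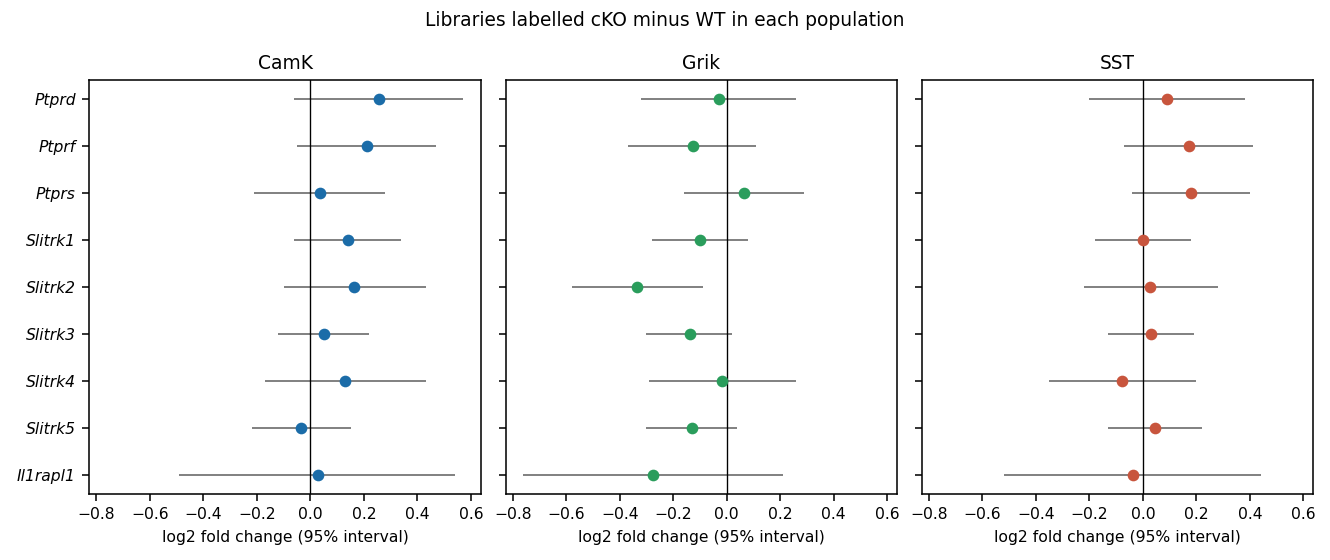
Log2 fold changes of libraries labelled cKO minus WT (horizontal axis) with 95% intervals for the 9 genes in each population. Every interval crosses 0 except that of Slitrk2 in Grik (-0.58 to -0.09), whose adjusted p was 0.89.

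The difference of genotype effects between populations was tested directly. None of the 9 genes passed for CamK minus Grik (0.00531% of all genes did), for CamK minus SST (0%) or for Grik minus SST (0.0106%). The 1 gene that passed for CamK minus Grik (lower) and the 2 for Grik minus SST (higher) were among Khdrbs3, Khdrbs1 and Khdrbs2. By edgeR's unadjusted p under 0.05 the counts were 1, 0 and 1 of 9, beside 6.5%, 7.85% and 3.86% of all genes, and DESeq2 called 0 of 9 in each. That gene was Slitrk2 both times, at 0.50 ± 0.17 for CamK minus Grik (edgeR adjusted p = 0.754) and -0.36 ± 0.17 for Grik minus SST (adjusted p = 1).

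Slitrk2, Slitrk4 and Il1rapl1 are on the X chromosome, and the libraries differ in sex-linked transcripts within every group. With at least 1 CPM counted as present, 14 libraries held the Y-linked Ddx3y alone, 7 held Xist, the RNA of the inactive X chromosome, alone, and 2 held both (SST cKO replicate 3 and SST WT replicate 5). Grik WT replicate 3, with 42.5 CPM of Xist, had the highest value of its group for Slitrk2 (17.3), Slitrk4 (34.3) and Il1rapl1 (7.59). CamK cKO replicate 5, with 51.3 CPM of Xist, was the highest of its group for these 3 genes (14.5, 33.9 and 9.06 CPM), and also for the autosomal members. SST cKO replicate 4 (11.6 CPM of Xist) was likewise highest of its group for all 3, at 12.9, 33.0 and 6.80 CPM. The other libraries with Xist alone did not follow that order: CamK WT replicate 5 (3.04 CPM of Xist) was the lowest of its group for all 3 (10.8, 22.6 and 5.44 CPM). Grik cKO replicate 2 (20.2 CPM of Xist) and Grik WT replicate 4 (7.58 CPM) were the lowest of their groups for Slitrk4, at 25.9 and 28.5 CPM, and CamK cKO replicate 6 (8.49 CPM) lay in the middle of its group for all 3 genes. Of the 2 libraries with both transcripts, SST WT replicate 5 (25.7 CPM of Xist) was the highest of its group for Slitrk4 (37.0 CPM) and Il1rapl1 (7.21 CPM), and SST cKO replicate 3 (21.1 CPM of Xist) the lowest of its group for Slitrk2 (10.4 CPM) and Slitrk4 (25.9 CPM). With a sex-gene score as a covariate, Slitrk2 in Grik was -0.29 for libraries labelled cKO minus WT (adjusted p = 1) and -0.25 for CamK minus Grik in WT (adjusted p = 0.0874, so no longer passed). Leaving out the 2 libraries that held both transcripts left 4 of 9 genes called between CamK and SST in WT (58.4% of all genes in that fit), 6 between Grik and SST in WT (55.8%) and 0 between genotypes in SST (0.0107%).

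The wider pathway was read from a list of 29 genes: other ligands of the phosphatases, heparan sulfate proteoglycans with their partner Lrrtm4, intracellular partners and microexon regulators. Of these, 28 were tested and Gpc2 was too low. None passed between genotypes or for a difference of genotype effects (1, 0 and 3 had an edgeR p under 0.05 in CamK, Grik and SST, beside 7.05%, 4.88% and 5.85% of all genes; for the differences CamK minus Grik, CamK minus SST and Grik minus SST the counts were 1, 2 and 2, beside 6.5%, 7.85% and 3.86%). Between WT populations, 17 of 28 passed for CamK and Grik (8 higher, 9 lower in CamK), 21 for CamK and SST (10 higher, 11 lower) and 19 for Grik and SST (8 higher, 11 lower). Of all genes tested, 42.0%, 60.1% and 57.3% passed in the same comparisons. The median absolute log2 differences of the list were 0.41, 0.76 and 0.53, beside 0.34, 0.54 and 0.51 over all genes. In the libraries labelled cKO, 13, 19 and 17 of these genes passed again in the same direction; of all genes tested, 29.1%, 48.9% and 50.6% passed in both genotypes in the same direction.

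Proteoglycans bind Ptprs through their sugar chains. Of the 10 genes tested in the class of proteoglycans with Lrrtm4, 8 passed between CamK and Grik in WT (5 higher, 3 lower in CamK), 9 between CamK and SST (3 higher, 6 lower) and 8 between Grik and SST (3 higher, 5 lower), beside the background shares of 42.0%, 60.1% and 57.3%. Gpc4, the glypican that joins Ptprs to Lrrtm4, had a mean of 3.85 CPM in SST WT, 21.6 in CamK WT and 9.05 in Grik WT, and was 5.61-fold higher in CamK than in SST (log2 2.49 ± 0.15, edgeR adjusted p = 2.66e-13). Gpc1 was instead highest in Grik WT, at 228 CPM against 75.3 in CamK and 41.5 in SST. Its log2 difference was -1.60 ± 0.11 for CamK minus Grik and 2.46 ± 0.12 for Grik minus SST. Gpc6 and Gpc3 were highest in SST WT, at 10.3 and 4.77 CPM, against 1.59 and 1.49 in CamK WT. Sdc2, a syndecan, was lower in Grik than in SST (-1.65 on the log2 scale, 7.65 against 24.1 CPM), Sdc4 lower in CamK than in Grik (0.942 against 1.98 CPM), and Gpc5 higher in CamK than in Grik (4.6 against 2.17 CPM).

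Among the other ligands, Il1rap, which also binds Ptprd, was 5.34 CPM in SST WT, 18.5 in CamK WT and 25.4 in Grik WT, with log2 differences of 1.79 ± 0.21 and 2.25 ± 0.22 over SST. Il1rapl2, the close relative of Il1rapl1, was 5.15 CPM in SST WT, 2.39 in CamK WT and 0.442 in Grik WT. Ntrk3, the neurotrophin receptor that binds Ptprs, was 1.95-fold higher in CamK than in SST (42.6 against 21.8 CPM). Of the intracellular partners, Ppfia2, a liprin-alpha scaffold that binds the inner phosphatase domains, was 277 CPM in Grik WT against 110 in SST WT (log2 1.33 ± 0.09, edgeR adjusted p = 6.94e-12). Caskin2, a Caskin scaffold, was lower in CamK than in either other population (0.664 CPM against 4.89 in Grik and 3.31 in SST). Of the microexon regulators, Srrm3 was higher in CamK than in Grik by 0.28 ± 0.10 (adjusted p = 0.0213), and Srrm4 lower in Grik than in SST (-0.32 ± 0.09, adjusted p = 0.0055). Srrm3 also passed as higher in CamK WT than in SST WT (55 against 45.3 CPM). In the libraries labelled cKO, Srrm3 did not pass between CamK and Grik, while Srrm4 passed again between Grik and SST (51.3 against 60.6 CPM).

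**Figure D5:**
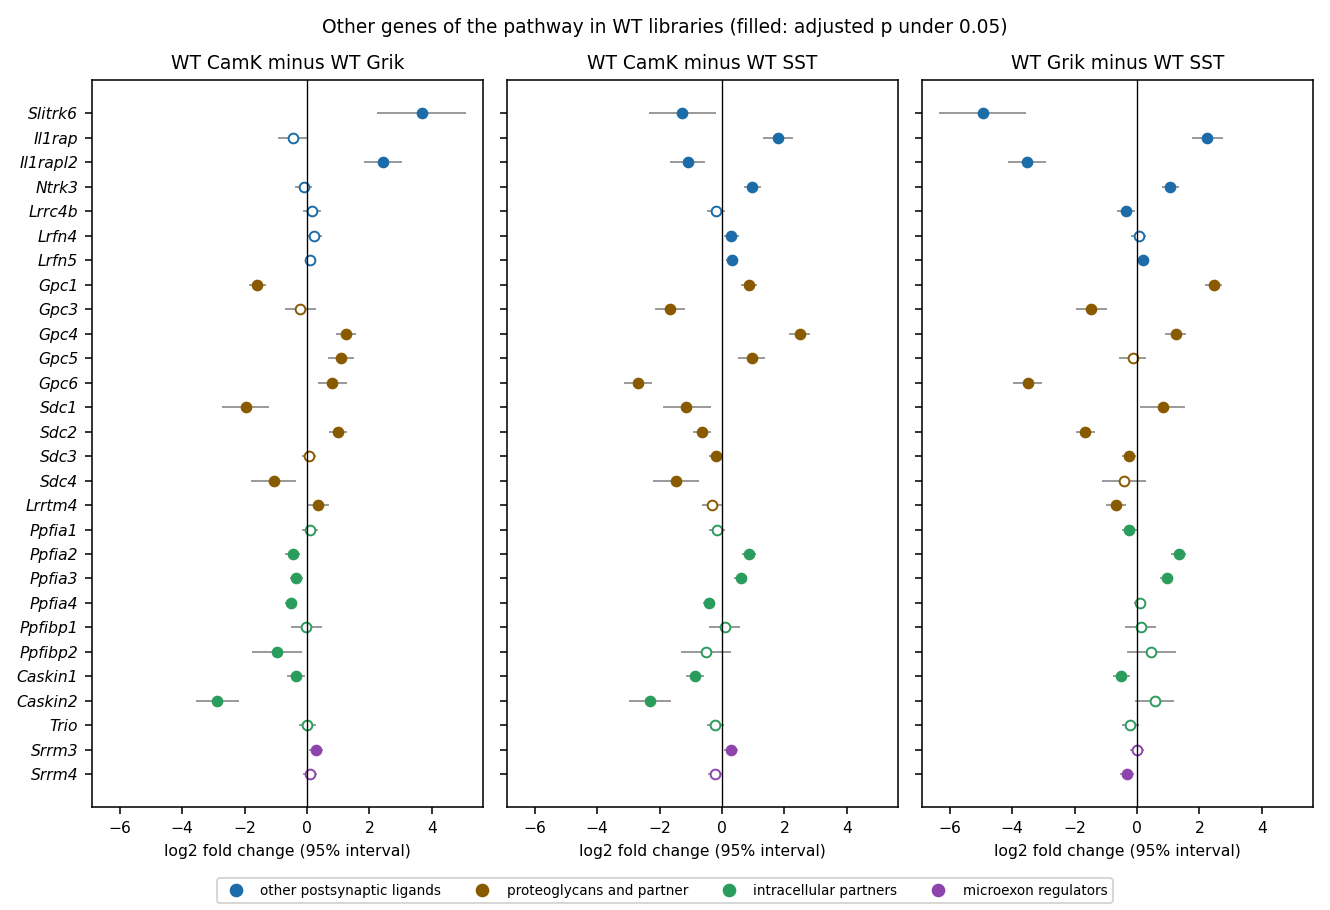
Log2 fold changes between WT populations (horizontal axis) with 95% intervals for the 28 tested genes of the wider pathway, coloured by class; filled points have an edgeR adjusted p under 0.05. Gpc4 lies at 2.49 in CamK minus SST and Gpc6 at -2.70, while Srrm3 and Srrm4 stay within 0.32 of 0.

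Across the 23 libraries, which share the 3 populations as their main source of variation, Slitrk5 ran with Slitrk1 and with Ptprs (r = 0.87 each) and against Ptprf (r = -0.80). Once the group means were removed, r was 0.73 for Slitrk5 and Slitrk1, 0.45 for Slitrk5 and Ptprs and 0.23 for Slitrk5 and Ptprf, the last with the opposite sign. The X-linked Slitrk4 and Il1rapl1 had r = 0.75 within groups and Slitrk3 and Slitrk4 r = 0.72. Among 9111 genes with a mean of at least 10 CPM, the most like Slitrk5 were Sipa1l1 (r = 0.989) and Arhgef28 (0.987), and the most like Ptprs were Plxna1 and Dagla (0.981 each). Slitrk1 was most like Adgrb3 (0.977) and Gmpr (0.958), and Ptprf had r = 0.930 with Plxnc1. For 4 other genes the highest r was 0.863 for Ptprd (Cemip), 0.859 for Slitrk4 (Tmem56), 0.830 for Il1rapl1 (Zc4h2) and 0.816 for Slitrk3 (Snx19). These coefficients are descriptions over libraries that share depth, scaling and population.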

How the data were processed

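Libraries were polyA RNA-seq of mouse hippocampal neurons. The authors deposited a table of raw read counts per gene and library. Trimmomatic and STAR and the build GRCm38 are named in the submitters' processing notes; versions, counting settings and strand are not given in the sources used here. The 4 summary rows that name no gene held 12.4% to 18.4% of a library's total and were left out; gene reads ranged from 87612006 to 112993538. Symbols and positions came from GENCODE for 45143 of 45706 gene IDs.

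Counts were filtered with filterByExpr (18823 genes kept), scaled by TMM and fitted with edgeR 4.0.16 in R 4.3.3 (quasi-likelihood, 6 groups, 17 residual degrees of freedom, no block), with Benjamini-Hochberg adjustment over all genes and a threshold of 0.05. The test was checked on simulated counts. Alternatives used DESeq2 1.42.0, limma 3.58.1 (voom with sample weights), relative log expression scaling, other filters, each comparison's populations alone, a replicate block, covariates and left-out libraries. A value is called turned in sign when its log2 difference, rounded to 2 decimals, changes sign. Likeness is Pearson's r of log2 CPM (prior count 2). No 2 libraries of a group agreed within sampling noise (chi-square per degree of freedom of at least 8.79 over 33 pairs).

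The 9 genes and the companion lists were chosen with earlier results of these data known. All 9 are named, as are companion genes past the threshold between genotypes and, per WT comparison, the 3 higher and 3 lower with the widest differences among those with a mean of at least 1 CPM and no overlap, plus Khdrbs3 and its paralogs, sex genes, markers and the 2 most alike genes; Srrm3 and Srrm4, which fall outside that rule, were named after their values were seen. Some of the most alike genes are not reported here.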

Additional observations from a re-analysis of the deposited data

Results flagged for a closer look

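Of 45 sets of 4 libraries examined (9 genes in 5 groups of 4), 2 had a highest library whose gap to the nearest one, divided by the range of the group, was over Dixon's 95% critical value; chance marks about 1 in 20 such sets, or 2.25 here. Ptprf in CamK WT was 36.5 CPM in replicate 3 against 26.6 CPM in the nearest library (gap over range 0.952). Without that library Ptprf was -0.91 for CamK minus SST in WT (adjusted p = 1.72e-07) and 0.35 for libraries labelled cKO minus WT in CamK (edgeR adjusted p = 0.495). Slitrk1 in Grik WT was 74.1 CPM in replicate 5 against 63.1 CPM in the nearest library (gap over range 0.879). Without it, Slitrk1 was 0.43 for CamK minus Grik (adjusted p = 0.000421) and 0.40 for Grik minus SST in WT (adjusted p = 0.000489).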

How the results depend on the processing

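Calls for Ptprs, Slitrk1 and Slitrk5 against SST, in WT libraries and in those labelled cKO, and for Ptprf in CamK against SST, kept direction and threshold in all 17 or 18 alternatives run for each. No gene of the 9 was called between genotypes, or for a difference of genotype effects, under any alternative. The count between CamK and Grik in WT was 5, and 1 with the non-neuronal covariate, which also lowered all genes called to 4053 there, 7388 for CamK against SST in WT and 4350 for CamK against Grik in the libraries labelled cKO. In that score CamK did not overlap the other populations, so covariate and population can hardly be told apart in these fits. Replicate numbers gave no clear sign of pairing: of 6 same-numbered pairs within a population, 1 had r over 0.1 (range -0.100 to 0.129). Of 38 pairs with other numbers, 3 did. These pairs are too few to decide whether libraries were paired. With that replicate block, Ptprf lost its call for Grik against SST in WT (-0.24, edgeR adjusted p = 0.144), Ptprd lost its own for Grik against SST in the libraries labelled cKO (-0.21, adjusted p = 0.135), and all genes called were 4 for CamK genotypes and 0 for the difference CamK minus Grik. Under that block Ptprd gained a call for CamK against SST in the libraries labelled cKO (0.47, adjusted p = 0.00318) and Slitrk4 for CamK against SST in WT (-0.33, adjusted p = 0.0316). Counts between genotypes moved with the tool; the cause was not tested.

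All genes called for cKO against WT in CamK, Grik and SST were 2 each, with 14, 14 and 11 by DESeq2, 6, 39 and 0 by limma-voom, and 1, 5 and 0 with the population fitted alone. Of the SST count, 1 was left with no filter, 1 with the non-neuronal covariate and 0 with the sex-gene covariate, which left 1 in CamK and 0 for the difference CamK minus Grik. DESeq2 called 2, 10 and 4 for the differences CamK minus Grik, CamK minus SST and Grik minus SST; for CamK minus SST the count was 1 by limma-voom, 1 with the non-neuronal covariate and 1 without the libraries that held both Xist and Ddx3y. Leaving out 1 library gave 1 to 4 in CamK (4 without CamK cKO replicate 5), 1 to 9 in Grik (9 without Grik WT replicate 6), 0 to 2 in SST, 0 to 2 for CamK minus Grik and 0 to 1 for CamK minus SST.

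The values that turned in sign were uncalled and small. For cKO against WT in CamK, limma-voom gave -0.03 for Slitrk3 and -0.10 for Il1rapl1, the non-neuronal covariate -0.04 for Ptprs and -0.06 for Il1rapl1, and the sex-gene covariate -0.10 for Il1rapl1. With 1 library left out the ranges were -0.06 to 0.11 for Slitrk3, -0.12 to 0.18 for Il1rapl1, -0.08 to 0.12 for Ptprs, -0.04 to 0.23 for Slitrk4 and -0.14 to 0.03 for Slitrk5. In Grik, Slitrk4 was 0.04 by limma-voom, 0.09 with the replicate block and 0.01 with the sex-gene covariate, and the ranges were -0.08 to 0.05 for Slitrk4, -0.11 to 0.04 for Ptprd and -0.01 to 0.17 for Ptprs. In SST, Slitrk2 was -0.02 by limma-voom and -0.01 with the sex-gene covariate, Ptprd -0.06 and Slitrk5 -0.01 with the replicate block, and, without the libraries holding both sex transcripts, Il1rapl1 0.12 and Slitrk4 0.08. Its ranges were -0.07 to 0.10 for Slitrk2, -0.04 to 0.18 for Ptprd, -0.03 to 0.09 for Slitrk5, -0.02 to 0.08 for Slitrk3, -0.17 to 0.10 for Il1rapl1 and -0.20 to 0.03 for Slitrk4.

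For the difference CamK minus Grik, Slitrk4 was -0.03 by limma-voom, and Ptprs 0.10 with the replicate block and 0.04 with the sex-gene covariate; ranges with 1 library left out were -0.02 to 0.25 for Slitrk4, -0.14 to 0.06 for Ptprs and -0.01 to 0.16 for Slitrk5. For CamK minus SST, limma-voom gave -0.05 for Ptprf, -0.08 for Slitrk3 and -0.09 for Il1rapl1, the non-neuronal covariate -0.01 for Slitrk3, the sex-gene covariate -0.01 for Il1rapl1, and leaving out the libraries with both sex transcripts -0.09 for Il1rapl1. Ranges were -0.04 to 0.20 for Ptprf, -0.10 to 0.08 for Slitrk3 and -0.08 to 0.23 for Il1rapl1. For Grik minus SST, Ptprd was 0.01 with the replicate block and Slitrk4 -0.09 without those libraries, with ranges of -0.22 to 0.01 for Ptprd, -0.19 to 0.01 for Ptprs and -0.04 to 0.19 for Slitrk4. Between WT populations, ranges crossed 0 for CamK minus SST in Ptprd (-0.03 to 0.18, and 0.76 with the non-neuronal covariate, adjusted p = 0.00286), Slitrk2 (-0.01 to 0.18) and Slitrk3 (-0.02 to 0.09) and for Grik minus SST in Il1rapl1 (-0.35 to 0.02, and 0.02 without the libraries with both sex transcripts). In the libraries labelled cKO, the non-neuronal covariate gave Slitrk3 0.08 and Slitrk4 0.04 for CamK minus Grik and Slitrk4 0.12 for CamK minus SST, and limma-voom gave Slitrk3 -0.04 there. Ranges were -0.16 to 0.02 for Slitrk3 (CamK minus Grik), and -0.06 to 0.12 for Slitrk3 and -0.22 to 0.05 for Slitrk4 (CamK minus SST).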
